A study of Mus musculus with 11 samples.

Results

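The immediate early genes described here are 9 genes chosen by symbol: Fos, Fosb, Jun, Junb, Egr1, Ier2, Ier3, Atf3 and Dusp1. They were chosen with earlier results of these data known, so their shares and medians beside those of other genes are descriptive only. All 9 were found among the 25239 genes of the count table. Their transcripts were measured by RNA-seq in J1 mouse embryonic stem cells at day 0, in a TKO, a TKO_FL and a TKO_602 culture, with 1 poly(A)-selected library each. Other samples of the series spell TKO as DNMT TKO, where DNMT stands for the DNA methyltransferases, and all 3 names carry it. What the suffixes of TKO_FL and TKO_602 mean, which exons were deleted and whether a line is 1 clone are not stated in the labels. The cells were grown on mitomycin C-treated mouse embryonic fibroblasts in medium with serum and LIF, with the medium changed daily. The labels do not say how long after a medium change the RNA was taken, although serum induces these genes.

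Immediate early genes are transcribed within minutes of a stimulus, without new protein synthesis, from promoters that already hold their transcription factors. Growth factors and serum act through the ERK kinases and serum response factor, and calcium or cyclic AMP act through CREB, which binds cyclic AMP response elements (CREs). The transcripts are short-lived, so that their level in a culture reflects its recent minutes to hours, including the handling of the cells. FOS and JUN proteins pair to form the transcription factor AP-1, EGR1 is a zinc finger factor, and DUSP1 switches MAP kinases off again.

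The promoters of 4 members are printed as examples of windows with and without the motifs searched: Fos, Fosb and Dusp1 hold some and Ier3 holds none. Atf3, lowest in TKO_FL like Ier3, holds a CRE core. Jun, with the order of libraries seen for Fos, holds no exact match to the motifs searched. The part of the motifs in the members' levels was not tested. Each promoter is the stretch of 250 bases before the RefSeq gene start of GRCm38.p6, read 5′ to 3′ on the gene's strand. Capitals mark matches to the CRE TGACGTCA, its core TGACG, the TATA box TATAAA, the EGR sites GCGGGGGCG and GCGTGGGCG, the AP-1 site TGACTCA, the STAT3 site TTCCNGGAA and the CArG box of serum response factor, all searched on both strands. A full CRE holds the core on both of its strands, and each member sequence was matched to the RefSeq table by symbol.
Fos, chr12:85473640-85473889, plus strand: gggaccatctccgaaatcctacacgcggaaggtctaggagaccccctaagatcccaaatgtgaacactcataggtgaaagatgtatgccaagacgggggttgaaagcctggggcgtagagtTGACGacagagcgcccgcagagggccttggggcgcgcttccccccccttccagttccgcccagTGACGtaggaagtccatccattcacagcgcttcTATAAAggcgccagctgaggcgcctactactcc
Fosb, chr7:19310046-19310295, minus strand: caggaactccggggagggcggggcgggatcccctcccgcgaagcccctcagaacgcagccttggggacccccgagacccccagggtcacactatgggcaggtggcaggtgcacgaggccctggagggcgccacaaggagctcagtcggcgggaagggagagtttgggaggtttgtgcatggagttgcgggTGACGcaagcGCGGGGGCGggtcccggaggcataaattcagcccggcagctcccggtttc
Dusp1, chr17:26508473-26508722, minus strand: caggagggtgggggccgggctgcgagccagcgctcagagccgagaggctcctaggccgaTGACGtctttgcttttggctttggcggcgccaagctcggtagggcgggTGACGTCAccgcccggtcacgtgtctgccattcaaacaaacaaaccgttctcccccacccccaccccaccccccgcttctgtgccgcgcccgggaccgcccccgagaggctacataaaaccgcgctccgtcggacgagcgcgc
Ier3, chr17:35821463-35821712, plus strand: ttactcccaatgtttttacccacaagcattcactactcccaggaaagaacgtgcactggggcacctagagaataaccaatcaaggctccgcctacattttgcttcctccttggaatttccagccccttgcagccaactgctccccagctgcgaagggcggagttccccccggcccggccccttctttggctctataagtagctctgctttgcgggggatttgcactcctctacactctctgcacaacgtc

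A promoter was found for 7 of the 9 members, all but Egr1 and Ier2, and 5 of the 7 held the CRE core: Fos, Fosb, Junb, Dusp1 and Atf3. Over all 32851 promoters of the same length the share was 17.8%. Fos had 2 CRE cores, which began 129 and 66 bases before the start, and a TATA box that began 33 bases before it. Of the members searched Fos alone held a TATA box, as did 12.4% of all promoters. Dusp1 had the only full CRE, which began 143 bases before the start, against 1.55% of all promoters. In Fosb an EGR site beginning 50 bases before the start lay close to a CRE core beginning 60 bases before it, and 3.06% of all promoters held an EGR site. Jun and Ier3 held none of the motifs, and no member's window held a CArG box (1.47% of all promoters), an AP-1 site (4.46%) or a STAT3 site (0.913%). Sites farther upstream and the promoters of Egr1 and Ier2 were not searched, so the members may hold such sites elsewhere. The CRE core contains CG, and members' windows were rich in it, with 8 CG pairs in Ier3 to 28 in Dusp1 against a median of 6 in all promoters. Their GC content was 54.4% in Ier3 to 68.8% in Fosb against a median of 52.4%. The part of base composition in the motif counts was not tested.

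Library totals over genes were 21133660 (TKO), 19573689 (TKO_FL) and 43158441 reads (TKO_602). Levels are given as CPM (the count scaled to a common library size, with TMM factors) and, between genes, as TPM computed here from the same counts and the exonic length. The embryonic stem cell markers were present, with Pou5f1 at 1386, 1290 and 1169 CPM in TKO, TKO_FL and TKO_602. Dnmt1, the maintenance DNA methyltransferase, stood at 159, 3364 and 2444 CPM, Dnmt3a at 35.2, 36.1 and 27.8 CPM and Dnmt3b at 71.7, 34.0 and 11.9 CPM. The 3 cultures thus differed in Dnmt1, which was far higher in TKO_FL and TKO_602 than in TKO, and the labels do not say why. Reads from exons outside a deletion do not check a knockout. All 14 fibroblast feeder markers had reads in all 3 libraries, and they summed to 599.5, 328 and 476 CPM in the same order. The 11 primitive endoderm markers, none of them at 0, summed to 1640, 234 and 447 CPM. The part of either cell type in the results was not tested, and fewer cells of a type and less RNA per cell cannot be told apart. Per the file headers the TKO_602 alignment file lay in a separate folder, and this library was also the deepest. The headers do not say whether it was a separate batch, so its genotype and any such difference cannot be told apart. There are no replicates, so no test was run and every difference lies between 2 libraries. Folds are on the CPM + 1 scale, which understates folds of low genes. Each fold has an exact 95% binomial interval without the added 1, which covers counting error only.

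The 9 genes together took 0.0703% of gene reads in TKO, 0.0960% in TKO_FL and 0.153% in TKO_602. Their summed level was 798 TPM, 1030 TPM and 1500 TPM. In TKO the sum was led by Ier2, which made up 44.5% of it, whereas Fos and Egr1 together made up 22.8%. In TKO_602 Fos and Egr1 made up 48.4% and Ier2 16.3%, with TKO_FL between them at 29.4% and 33.5%. The leading gene thus differed between libraries, with Ier2 first in TKO and TKO_FL and Fos first in TKO_602.

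**Figure D1:**
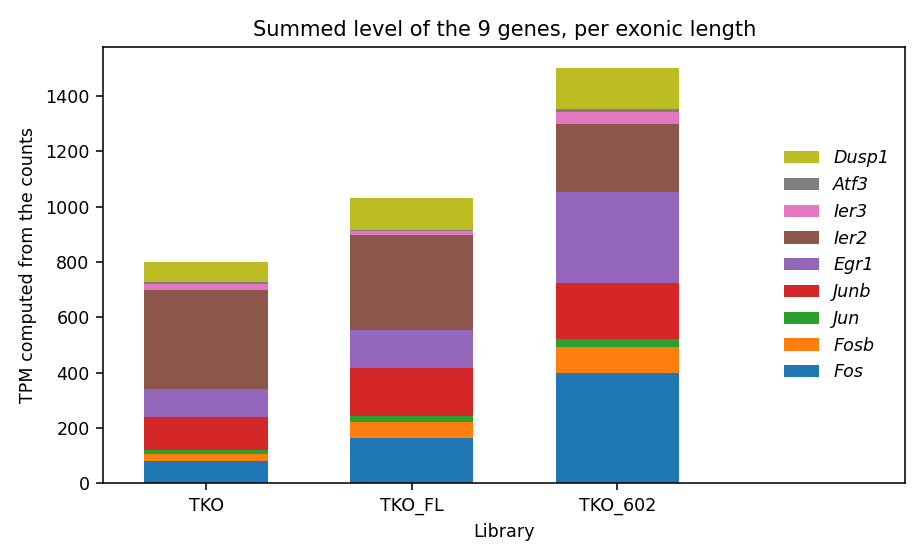
Stacked bars give the summed level of the 9 immediate early genes in each library, in TPM computed from the counts (1 library per genotype, so no error bars). The bar is highest in TKO_602 at 1500 TPM, where the Fos and Egr1 segments make up 48.4%, and lowest in TKO at 798 TPM, where Ier2 makes up 44.5%.

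Fos encodes the FOS subunit of AP-1 (mm10 chromosome 12, 85473890 to 85477274, plus strand, 4 exons). Its level was 76.1, 159 and 364 CPM in TKO, TKO_FL and TKO_602, from 1576, 3049 and 16303 reads. The level was lowest in TKO, and the counting intervals of the 3 libraries did not overlap. Against TKO, Fos was 2.07-fold higher in TKO_FL (interval 1.91 to 2.27) and 4.73-fold higher in TKO_602 (interval 4.44 to 5.15). TKO_602 was 2.29-fold above TKO_FL (interval 2.17 to 2.43). Per length, Fos held place 2312 of 17073 genes with reads in TKO and place 295 of 17749 in TKO_602, and it was the highest of the 9 members there at 397 TPM.

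Fosb, its paralog (chromosome 7, 19302696 to 19310045, minus strand, 6 exons), had 43.9, 100 and 154 CPM in the same order, from 909, 1930 and 6880 reads. TKO was again lowest, with a 2.26-fold higher level in TKO_FL (interval 2.04 to 2.56) and a 3.44-fold higher one in TKO_602 (interval 3.17 to 3.87). The step from TKO_FL to TKO_602 was smaller for Fosb than for Fos, at 1.52-fold (interval 1.42 to 1.64). The ratio of Fos to Fosb in TPM was 3.10 in TKO, 2.83 in TKO_FL and 4.24 in TKO_602.

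Jun and Junb encode partners of FOS in AP-1 and differed less between libraries. Jun (chromosome 4, 95049036 to 95052222, minus strand, 1 exon) had 25.7, 30.1 and 40.3 CPM in TKO, TKO_FL and TKO_602. Its fold of TKO_FL against TKO was 1.16, with an interval from 0.987 to 1.39 that holds 1, and that of TKO_602 against TKO was 1.55 (interval 1.37 to 1.80). Junb (chromosome 8, 84976909 to 84978748, minus strand, 1 exon) had 98.3, 144 and 163 CPM, a fold of 1.46 in TKO_FL (interval 1.35 to 1.59) and of 1.65 in TKO_602 (interval 1.55 to 1.78) against TKO. Both genes had the same order of libraries as Fos, but neither reached 2-fold in any comparison. The sum of Fos and Fosb was 0.776 times that of Jun and Junb in TKO, 1.16 times in TKO_FL and 2.10 times in TKO_602, all in TPM, and Junb stayed 6.63, 8.31 and 7.03 times above Jun.

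Egr1, the zinc finger factor gene, which is itself induced by serum, had 145, 194 and 438 CPM in TKO, TKO_FL and TKO_602, from 2998, 3724 and 19633 reads. TKO_FL was above TKO by a fold of 1.34 (interval 1.25 to 1.43), and TKO_602 stood farther off, 3.01-fold above TKO (interval 2.87 to 3.20) and 2.26-fold above TKO_FL (interval 2.15 to 2.38). Fos and Egr1 exceeded both other libraries by at least 2-fold in TKO_602, which holds for 22.2% of the members and for 4.36% of the 13948 genes that reached a CPM of 1 in any library.

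**Figure D2:**
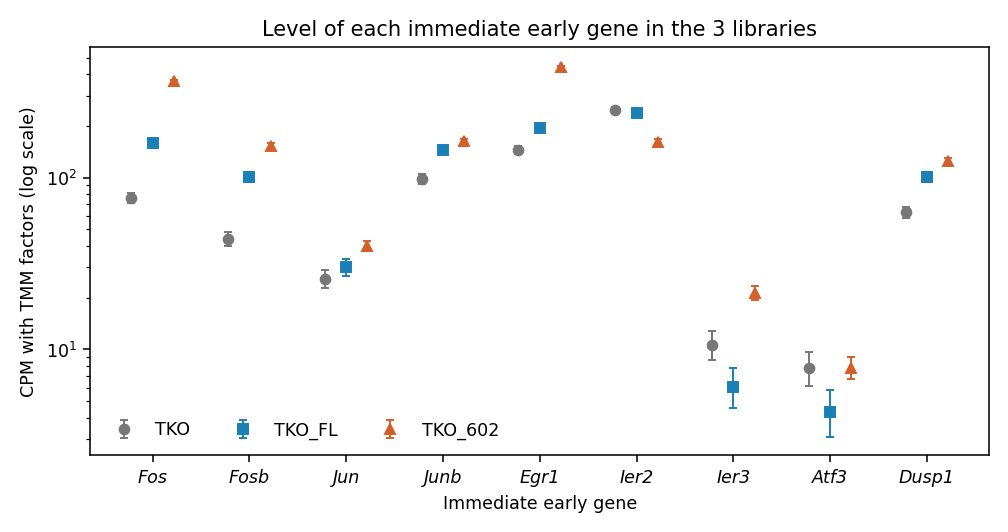
Points give the level of each immediate early gene in the TKO, TKO_FL and TKO_602 libraries as CPM with TMM factors on a log axis, and bars are 95% exact Poisson intervals of counting error. Fos is at 76.1, 159 and 364 CPM and Ier2 at 247, 239 and 162 CPM, the one gene that is lowest in TKO_602.

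Ier2, a small nuclear protein gene (chromosome 8, 84661331 to 84662852, minus strand, 1 exon), was the one member with its lowest level in TKO_602. It had 247, 239 and 162 CPM in TKO, TKO_FL and TKO_602, from 5122, 4599 and 7252 reads. TKO and TKO_FL did not differ beyond counting error (fold 0.967, interval 0.914 to 1.02), and TKO_602 was lower than both, at 0.656 times TKO (interval 0.622 to 0.689) and 0.678 times TKO_FL (interval 0.642 to 0.713). Per length it was the highest member in TKO and TKO_FL, at 356 and 345 TPM, and the third in TKO_602 at 245 TPM.

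Ier3, an early response gene that bears on cell survival (chromosome 17, 35821713 to 35822911, plus strand, 2 exons), and Atf3, a stress-induced factor of the ATF and CREB family (chromosome 1, 191170297 to 191183333, minus strand, 4 exons), were low genes with their minimum in TKO_FL. Ier3 had 10.6, 6.03 and 21.3 CPM in TKO, TKO_FL and TKO_602, from 219, 116 and 953 reads. Its fold was 0.608 for TKO_FL against TKO (interval 0.408 to 0.791), 1.92 for TKO_602 against TKO (interval 1.63 to 2.50) and 3.17 for TKO_602 against TKO_FL (interval 2.68 to 4.71). Atf3 had 7.77, 4.32 and 7.83 CPM, from 161, 83 and 351 reads. Atf3 did not differ between TKO and TKO_602 beyond counting error (fold 1.01, interval 0.770 to 1.33), and TKO_FL was lower than TKO (fold 0.606, interval 0.372 to 0.817). These 2 genes were thus lower in TKO_FL than in TKO, where Fos, Fosb, Junb, Egr1 and Dusp1 were higher.

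Dusp1, a nuclear phosphatase that dephosphorylates MAP kinases (chromosome 17, 26505591 to 26508472, minus strand, 4 exons), had 62.7, 101 and 125 CPM in TKO, TKO_FL and TKO_602, from 1298, 1944 and 5616 reads. It was 1.60-fold higher in TKO_FL (interval 1.46 to 1.78) and 1.98-fold higher in TKO_602 (interval 1.84 to 2.18) than in TKO. Dusp1 had the same order of libraries as Fos and Junb, with folds nearer in size to those of Junb.

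Per exonic length, the order of the 9 genes in TKO was Ier2 (356 TPM), Junb (117), Egr1 (103), Fos (79.0), Dusp1 (70.6), Fosb (25.4), Ier3 (21.2), Jun (17.6) and Atf3 (8.61). The counting intervals of Fos and Dusp1, of Fosb and Ier3 and of Ier3 and Jun overlapped there, so these neighbours were not separated. The order in TKO_FL was Ier2, Junb, Fos, Egr1, Dusp1, Fosb, Jun, Ier3 and Atf3, from 345 to 4.79 TPM, with overlap between Junb (172) and Fos (165). In TKO_602 it was Fos, Egr1, Ier2, Junb, Dusp1, Fosb, Ier3, Jun and Atf3, from 397 to 9.13 TPM, with no overlap between neighbours. Atf3 was last in each library and lay near the middle of all genes with reads, at place 8652 of 17073 in TKO. No exon of the 9 genes overlapped an exon of another gene in the table, on either strand.

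In TKO_FL against TKO, 2 of 9 members, Fos and Fosb, were at least 2-fold higher on the log2(CPM + 1) scale and none was lower. Over 13563 genes the background was 3.24% higher and 2.50% lower. The median log2 fold of the members was 0.42, that of all genes 0.00. The 2-fold threshold lay inside the counting interval for Fos and below it for Fosb. Counting intervals lay wholly above equality for 5 members, below it for Ier3 and Atf3, and held it for Jun and Ier2.

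The comparison of TKO_602 with TKO put 3 of 9 members past 2-fold upward, Fos, Fosb and Egr1, and none downward, against a background of 11.0% higher and 8.06% lower over 13748 genes. The median was 0.94, with 0.03 over all genes. Dusp1 and Ier3 lay just under the threshold, at log2 folds of 0.99 and 0.94, with intervals that hold it. Without library factors, or on TPM, both passed and 5 of 9 members were counted. TKO_602 set against TKO_FL also had 3 of 9 past 2-fold upward, Ier3, Fos and Egr1, and none downward, against a background of 6.75% higher and 4.87% lower over 13683 genes. The median there was 0.61, with 0.03 over all genes. The 3 comparisons share libraries, so their folds are not independent of each other. The primitive endoderm markers, highest in TKO, were at least 2-fold lower in TKO_FL for 11 of 11 and in TKO_602 for 10 of 11, and the fibroblast markers for 4 of 13 measured in each. In TKO_602 against TKO_FL, 3 of 10 measured primitive endoderm markers were at least 2-fold higher and none lower (median log2 fold 0.61), and of 13 fibroblast markers 2 were higher and 2 lower (median 0.18). Their part in the members' folds was not tested.

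**Figure D3:**
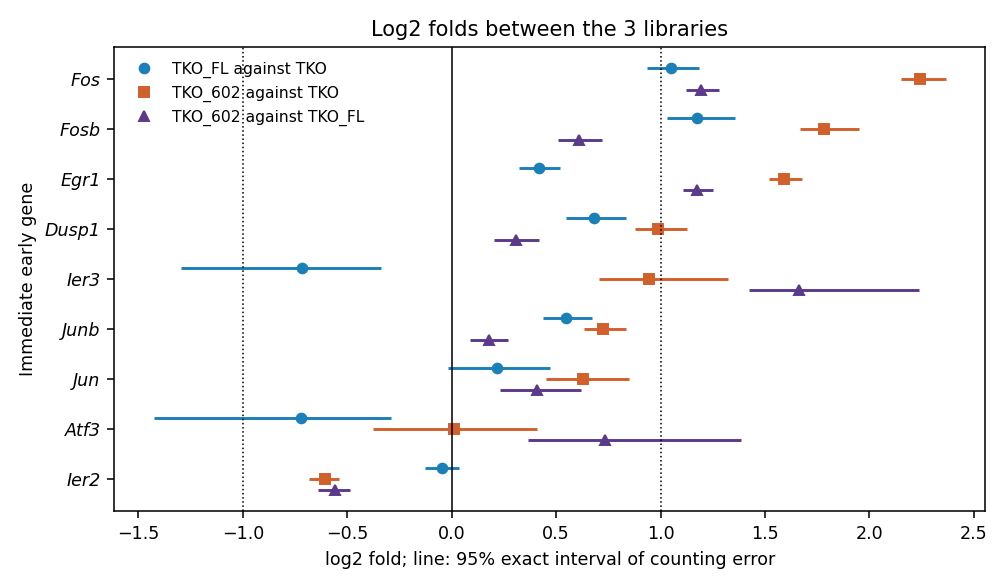
Points give the log2 fold of CPM + 1 of each immediate early gene in the 3 comparisons, lines the 95% exact interval of counting error without a pseudocount, and dotted lines mark 2-fold. Fos is rightmost for TKO_602 against TKO at 2.24, Ier2 lies left of 0 in all 3 comparisons, and Ier3 and Atf3 lie left of 0 for TKO_FL against TKO.

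The order TKO below TKO_FL below TKO_602 was seen in 6 of 9 members, Fos, Fosb, Jun, Junb, Egr1 and Dusp1, and in 26.6% of 13948 genes. TKO_602 was the highest library for 8 of 9 members and for 42.3% of genes. These counts rest on point values. For Atf3, TKO_602 and TKO (7.83 and 7.77 CPM) did not differ beyond counting error, nor did TKO_FL and TKO for Jun. Among the genes outside all lists whose pattern over the 3 libraries was nearest to the members' median were Fdft1, Ncs1, Ankrd24 and Rnf170, at distances of 0.026 to 0.031 between centred log2(CPM + 1) values. Fdft1, which encodes squalene synthase, had 109, 141 and 196 CPM, and Ncs1, a neuronal calcium sensor gene, had 22.2, 29.5 and 41.0 CPM. With 3 libraries such nearness is common: 299 of 7980 genes lay nearer to the median than Jun, the closest member (distance 0.17), and 6588 lay nearer than Ier2, the farthest (1.07).

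Of the 39 other immediate early genes listed, 15 were highest in TKO_602, 14 in TKO_FL and 10 in TKO, and 9 had the order of Fos. Among all genes, 42.3% were highest in TKO_602 and 26.6% had that order. In TKO_FL against TKO, 1 of the 39, Egr3, was at least 2-fold higher and none lower, with a median of 0.20. The shares of all genes there were 3.24% and 2.50%. The largest folds among genes of at least 5 CPM were in Rhob, a small GTPase gene (30.7 and 58.9 CPM, log2 0.92), Zfp36, which encodes an mRNA decay factor (51.3 and 91.9 CPM, log2 0.83), Klf2 (415 and 689 CPM, log2 0.73) and the kinase gene Sgk1 (418 and 260 CPM, log2 -0.68).

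Between TKO and TKO_602, 4 of 38 measured genes of that list stood past 2-fold upward and 2 downward, with a median of -0.03. These counts lie near the shares of all genes, 11.0% upward and 8.06% downward. The transcriptional repressor gene Bhlhe40 had 35.5 CPM in TKO and 108 in TKO_602, Maff, a small MAF factor gene, 14.9 and 37.6 CPM, and the pluripotency factor gene Klf4 155 and 356 CPM. Egr2, the paralog of Egr1, had 4.73 and 11.6 CPM. Lower were Gadd45g (11.1 and 4.57 CPM) and Myc, a growth regulator that serum also induces, with 48.7, 35.5 and 3.50 CPM in TKO, TKO_FL and TKO_602. Of the 39, 2 were past 2-fold upward in TKO_602 against TKO_FL and 5 downward, with a median of -0.22. Among all genes the shares were 6.75% and 4.87%. The lower genes of the list were Myc, Csrnp1 (73.4 and 27.1 CPM), Plk3 (59.8 and 23.1 CPM), Egr3 (4.63 and 1.16 CPM) and Nr4a3 (2.13 and 0.357 CPM). Other well-known genes of the class stayed within 2-fold between TKO and TKO_602, such as Nr4a1, an orphan nuclear receptor gene (65.6 and 51.7 CPM), and the matricellular genes Ccn1 (50.9 and 91.7 CPM) and Ccn2 (84.8 and 110 CPM). Egr2, Egr3, Gadd45g, Nr4a1, Nr4a3, Ccn1 and Ccn2 were named after their values were seen.

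**Figure D4:**
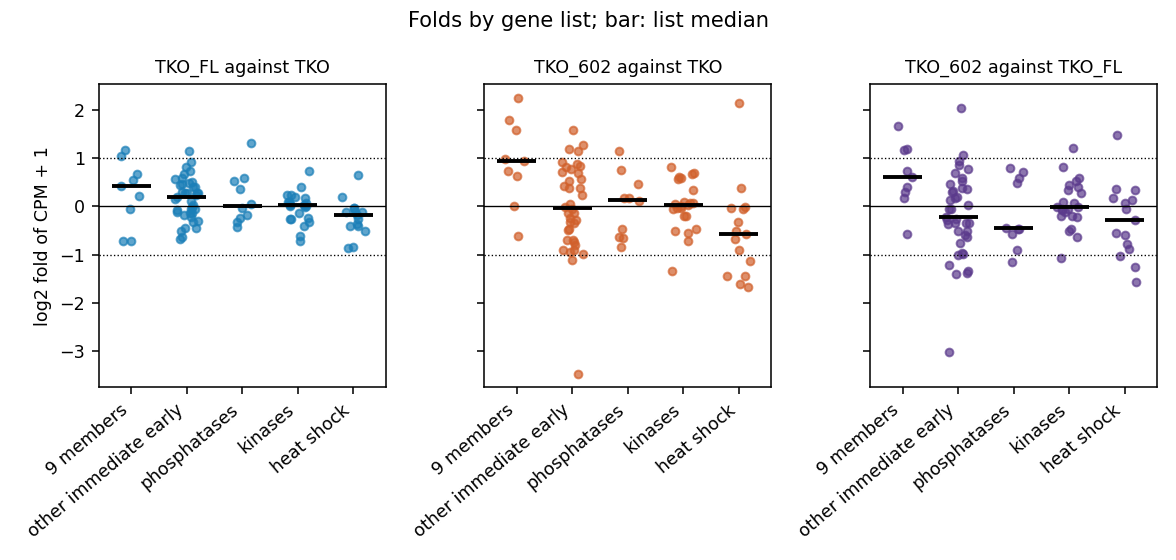
Each point is a gene's log2 fold of CPM + 1 in the comparison above its panel, for the 9 members, other immediate early genes, MAP kinase phosphatases, upstream kinases and heat shock genes with a CPM of at least 1. Bars are list medians and dotted lines mark 2-fold. In TKO_602 against TKO the medians are 0.94 for the members, -0.03 for the other immediate early genes and -0.56 for the heat shock genes.

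Of 14 measured AP-1 and CREB family partners, none passed 2-fold in TKO_FL against TKO. Among all genes, 3.24% passed upward there and 2.50% downward. Between TKO and TKO_602, 2 of 13 were past it upward and none downward, against 11.0% and 8.06% of all genes, with a median of -0.001. These were Maff and Jdp2, which encodes a repressor that pairs with JUN and had 3.57, 5.72 and 17.3 CPM in TKO, TKO_FL and TKO_602. In TKO_602 against TKO_FL Jdp2 alone of 14 passed, upward, against 6.75% of all genes upward and 4.87% downward. Jund, the third JUN gene, had 158, 193 and 158 CPM, and Fosl2, a FOS family gene, 18.8, 16.5 and 11.3 CPM, with TKO_602 not the highest library for either; Jund was named after its values were seen.

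The kinases, phosphatases and factors around the members were mostly within 2-fold, as were most of all genes in each comparison. Of all genes, 3.24% were at least 2-fold higher and 2.50% lower in TKO_FL against TKO. These shares were 11.0% and 8.06% in TKO_602 against TKO, and 6.75% and 4.87% in TKO_602 against TKO_FL. Of 23 upstream kinase and receptor genes, none passed in TKO_FL against TKO, and Map2k2, one of the kinases that activate ERK, was lower in TKO_602 (133, 111 and 52.1 CPM), while its paralog Map2k1 had 135, 114 and 172 CPM. Egfr was the other gene past 2-fold, in TKO_602 against TKO_FL (4.21 and 11.0 CPM). Map2k1 was named after its values were seen. Srf, which encodes serum response factor, had 115, 148 and 96.3 CPM, and among 5 measured genes of its list only its partner Elk3 passed, with a log2 fold of -1.02 in TKO_FL against TKO. Of 10 other MAP kinase phosphatase genes, 1 was at least 2-fold higher in TKO_FL than in TKO, Dusp8, chosen after its values were seen. Dusp8 had 0.628 and 3.07 CPM in TKO and TKO_FL, from 13 and 59 reads. Between TKO and TKO_602, 1 was at least 2-fold higher, Dusp16 (48.5 and 109 CPM). In TKO_602 against TKO_FL Dusp5 was lower (38.9 and 17.0 CPM), and Dusp6, an ERK phosphatase induced by ERK signalling, had 73.0, 64.2 and 46.1 CPM. Among 7 genes of mRNA decay and EGR corepression, Btg1 passed, at 37.2, 44.4 and 94.0 CPM, and Nab2, an EGR corepressor gene that EGR1 induces, had 40.9, 41.4 and 23.9 CPM.

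Heat shock genes, which also respond to handling, had a log2 fold below 0 for 13 of 15 in TKO_FL against TKO, for 13 of 15 in TKO_602 against TKO and for 9 of 15 in TKO_602 against TKO_FL. Over all genes, 50.0%, 52.0% and 52.3% had a log2 fold above 0 in these comparisons. None of 15 passed 2-fold in TKO_FL against TKO, with a median of -0.19. Between TKO and TKO_602, 5 of 15 were past 2-fold downward and 1 upward, with a median of -0.56: the chaperone genes Hsph1 (325 and 102 CPM) and Hspd1 (1867 and 690 CPM) and the heme oxygenase gene Hmox1 (208 and 68.0 CPM) were lower, and Hspb8 (20.5 and 93.2 CPM) was higher. In TKO_602 against TKO_FL 3 of 15 were lower and 1 higher. Among all genes, 8.06% were past 2-fold downward in TKO_602 against TKO and 4.87% in TKO_602 against TKO_FL. The upward shares in these comparisons were 11.0% and 6.75%. In TKO_FL against TKO, 3.24% of all genes were past 2-fold upward and 2.50% downward. The part of culture handling in the levels of the immediate early genes was not tested.

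The nearest genes on each side of the members, among those with a CPM of at least 1 in some library, gave 18 neighbours, a comparison chosen after the data were seen. In TKO_FL against TKO 1 of 18 was at least 2-fold higher (3.24% of all genes) and in TKO_602 against TKO_FL 2 of 18 (6.75%). None was at least 2-fold lower in either. Between TKO and TKO_602, 4 of 18 were past 2-fold upward and none downward, against 11.0% and 8.06% of all genes. The median of the 18 was 0.07 there, against 0.94 for the members. The neighbours that passed were Jdp2, which lies 121831 bases from Fos, Reep2 next to Egr1 (2.99, 6.81 and 14.2 CPM in TKO, TKO_FL and TKO_602), Flot1, which lies 446 bases from Ier3 (31.3 and 45.1 CPM in TKO_FL and TKO_602, log2 fold 1.28 against TKO), and Neurl1b next to Dusp1 (0.821, 1.25 and 6.34 CPM). Prdx2 and Hook2 beside Junb, at 393 and 249 CPM and at 87.3 and 88.0 CPM in TKO and TKO_602, were not higher with it. Junb and Ier2 lie on the same chromosome and had opposite directions in TKO_602. The part of chromosomal position in the members' levels was not tested.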

How the data were processed

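RNA values were taken from 3 libraries, 1 per genotype; the 8 immunoprecipitation samples were not analysed here. Gene counts were deposited as reads per gene, made with featureCounts 2.0.6 in paired mode on the mm10 RefSeq annotation without strand or multi-mapping options, per the file headers; each mate counts alone. Trim Galore, HISAT2, SAMtools and Subread are named in the submitters' processing notes. Without strand, antisense reads are not separated. The deposited TPM signal columns sum to 10000000 and were divided by 10. Both tables hold 11 further columns of no listed sample, which were not used.

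CPM used TMM factors of edgeR 4.0.16 (0.980, 0.983 and 1.04 for TKO, TKO_FL and TKO_602). Log2 folds used a pseudocount of 1, a CPM of at least 1 in one of the compared libraries and a 2-fold threshold. Intervals treat 2 reads as 1 fragment. The fold step was tried on simulated Poisson counts, without library factors, mate pairs or variation between cultures. It therefore checks the calculation only, not the folds between these cultures. Members and lists were chosen with earlier results of these data known. Named genes are the members, up to 4 per list and comparison with the largest folds at 5 CPM or more, and the 5 nearest patterns at 20 CPM or more. Some genes that this rule names are not reported here. Older symbols were matched through the RefSeq table of GRCm38.p6. Alternatives were other pseudocounts, DESeq2 1.42.0 size factors, no factors, TPM, and other filters.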

Additional observations from a re-analysis of the deposited data

How the results depend on the processing

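The count of members at least 2-fold higher was 2 in TKO_FL against TKO under all 8 alternatives tried and 3 in TKO_602 against TKO_FL under all 7. In TKO_602 against TKO it was 5 with no factors and 5 on TPM from the counts, through Dusp1 (1.07 and 1.06) and Ier3 (1.02 and 1.05), and 4 with a pseudocount of 0.1. Those 2 scalings put the median of all genes at 0.12 and 0.11 instead of 0.03 and that of the members at 1.02 and 1.05. Atf3, at 0.01 in that comparison, was at -0.01 with DESeq2 size factors; the cause was not tested. No other member changed direction in any comparison. Over all genes, the total past 2-fold was 779, 2614 and 1591 in TKO_FL against TKO, TKO_602 against TKO and TKO_602 against TKO_FL, and 175, 1212 and 618 with a pseudocount of 5; with 0.1 the first was 1474. No paired analysis was possible because each genotype has 1 library. Depth limits Atf3 and Ier3 most, with 83 and 116 reads in TKO_FL.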
